A study of Mus musculus with 6 samples.

Results

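The 10 genes described here encode the machinery of excitation-contraction coupling in skeletal muscle: Ryr1, Cacna1s, Cacnb1, Cacng1, Stac3, Jph1, Jph2, Trdn, Casq2 and Atp2a1. They were taken by name from a table of 17558 genes, by matching NCBI gene numbers to symbols and summing over transcripts, and all 10 were in the table and passed the filter on low counts. RNA was sequenced in 6 libraries of C2C12, an immortalized line of mouse myoblasts that leaves the cell cycle and fuses into myotubes when growth serum is replaced by horse serum with insulin, transferrin and selenium. All cells were harvested 48 h after that change, and each of the 3 groups held 2 libraries. Control cells (shScr, genotype label WT) stably carried a scrambled hairpin RNA with no target. The shPkm1 and shPkm2 groups (labels Pkm1 Knockdown and Pkm2 Knockdown) stably carried a hairpin against the Pkm1 or the Pkm2 isoform of pyruvate kinase, so that every group expressed a hairpin. The labels do not say whether each line was a clone or a pool, nor whether the libraries of a group came from separate cultures, so the p-values measure the spread between these libraries, which may be technical.

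In skeletal muscle an action potential runs into the T-tubules, where the voltage-gated calcium channel Cav1.1 acts as the voltage sensor. The sensor is mechanically coupled to the ryanodine receptor of the adjoining sarcoplasmic reticulum, which releases the calcium that starts contraction. Junctophilins hold both membranes together at the triad, calsequestrin buffers calcium in the store, triadin anchors calsequestrin to the release channel, and the SERCA pump returns calcium to the store. In development these parts are assembled as myoblasts differentiate and fuse.

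Libraries held 18216896 to 19796036 estimated counts. As a check of the labels, the Pkm1 isoform (NM_001253883.1) had 545.8 and 588.8 TPM (a level corrected for transcript length and scaled to the library) in shScr, 242.7 and 218 in shPkm1 and 254 and 254 in the shPkm2-labelled libraries. The Pkm2 isoform (NM_011099.3) had 1073 and 1517 TPM in shScr, 1278 and 1379 in shPkm1, and 2700 and 2630 in the shPkm2-labelled libraries, so the isoform named by that label was not reduced there, and the group is called by its label throughout. The summed level of 8 myotube markers (Myog, Mymk, Mymx, Ckm, Acta1, Myh3, Tnnt3, Mylpf) was 31538 to 42258 TPM in shScr, 13885 to 15046 in shPkm1 and 304 to 315 in the shPkm2-labelled libraries, and none of the 8 was under 1 TPM in every library. The sum of 6 myoblast markers (Myod1, Myf5, Pax7, Des, Cdh15, Chrna1) was 3258 to 3504, 2860 to 2992 and 1154 to 1247 TPM in the same order, with Pax7 under 1 TPM throughout. Chrna1 is also among the membrane excitation genes below, so this sum is no count of undifferentiated cells. Of the marker lists for other cells, heart muscle (5 of 6 genes in the table, Myl7 under 1 TPM) summed to 2992 to 4217, 773 to 833 and 38.1 to 39.4 TPM. Smooth muscle markers (5 of 5, Myh11 under 1 TPM) summed to 7232 to 9585, 5493 to 5740 and 2628 to 2640 TPM. Fibroblast markers (5 of 5, Lum under 1 TPM) summed to 678 to 909, 2907 to 3046 and 717 to 835 TPM. Adipocyte markers (4 of 5) summed to 1.88 and 2.08 TPM in shScr, 4.22 and 4.24 in shPkm1, and 3.67 and 3.47 in the shPkm2-labelled libraries. Bone markers (5 of 5) summed to 4.84 and 7.81, 18.9 and 15.7, and 16.7 and 15.7 TPM in the same order. Neuron markers (4 of 4) summed to 15.6 and 29.1, 21.1 and 23.3, and 34.8 and 31.7 TPM. Of these, Adipoq, Plin1, Ibsp, Sp7, Alpl, Rbfox3, Snap25 and Syt1 were under 1 TPM throughout. The part of these shifts in the results below was not tested.

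All 10 genes of the coupling machinery were lower in both Pkm hairpin groups than in shScr. Their summed level was 2408 and 2106 TPM in the shScr libraries, 873 and 914 in shPkm1, and 251 and 243 in the shPkm2-labelled libraries. They took 0.444% and 0.367% of the counts of the control libraries, 0.129% and 0.137% in shPkm1, and 0.0299% and 0.0290% in the shPkm2-labelled libraries. In the edgeR quasi-likelihood test over 12643 genes, 10 of 10 had a Benjamini-Hochberg adjusted p under 0.05 and a lower level in shPkm1, where 31.4% of all tested genes were called lower and 63.1% in either direction. Likewise 10 of 10 were called lower in the shPkm2-labelled libraries, against 34.2% of all tested genes lower, 33.9% higher and 68% in either direction. The 2 comparisons share the control libraries. All 10 were lower by at least 2-fold in each, against 9.41% and 13.7% of tested genes, and 0 of 10 were lower by at least 8-fold in shPkm1, against 1.31%, and 7 of 10 in the shPkm2-labelled libraries, against 3.91%. On both TPM scales 9 of 10 were lower by at least 2-fold in each comparison, without Jph1 and Trdn respectively, and 6 of 10 by at least 8-fold in the shPkm2-labelled libraries; with library totals Trdn was also under 2-fold there. The median log2 fold change of the 10 was -1.84 in shPkm1 and -4.47 in the shPkm2-labelled libraries, while the median over all tested genes was -0.000147 and 0.00736. The scaling between libraries keeps the median over all genes near 0, and with library totals it was 0.194 and 0.332. In bulk RNA, fewer cells of a differentiated type and less RNA per cell cannot be told apart.

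**Figure D1:**
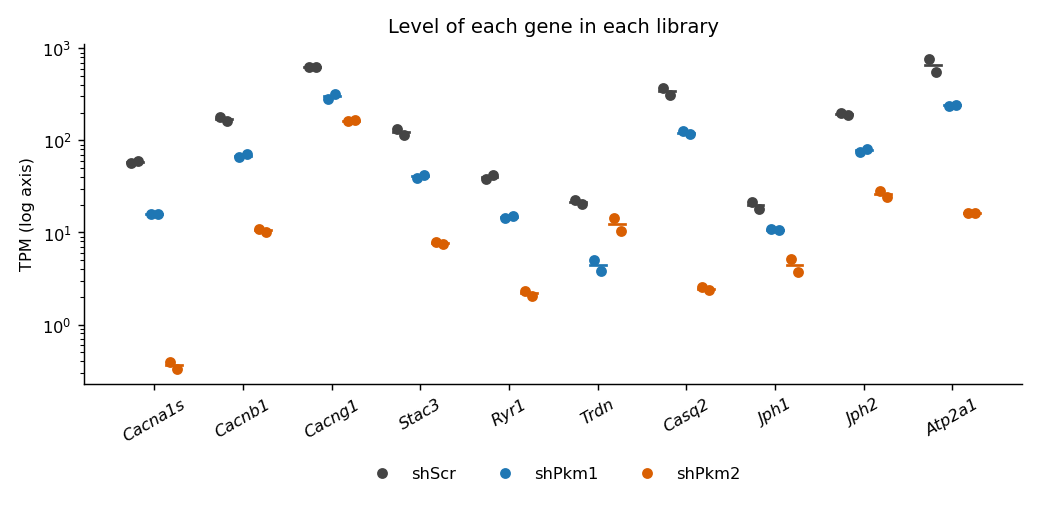
TPM (log axis) of the 10 genes in each of the 6 libraries; points are libraries and short bars are group means, in grey for shScr, blue for shPkm1 and orange for shPkm2. Every gene is highest in shScr, and all except Trdn are lowest in shPkm2: Cacna1s falls from 56.5 and 59.5 TPM to 0.39 and 0.33, while Trdn is lowest in shPkm1.

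In shPkm1 the falls were close to each other, with log2 fold changes from -1.31 (Jph1) to -2.69 (Trdn). In the shPkm2-labelled libraries they were spread widely, from -1.26 (Trdn) to -7.85 (Cacna1s). In the direct comparison of the Pkm hairpin groups, 9 of 10 genes were lower in the shPkm2-labelled libraries, where 27.3% of all tested genes were called lower, and 1 of 10, Trdn, was higher, where 25.7% were called higher and 53% in either direction. By at least 2-fold, 8 of 10 were lower, against 11.5% of tested genes, and by at least 8-fold 3 of 10, against 3.95%. Both libraries of the lower group lay below both libraries of the other group in CPM (counts scaled to library size) for each of these 10 falls against shScr, as they did for 40.3% of all tested genes in shPkm1 and 41.7% in the shPkm2-labelled libraries. The 9 falls of the direct comparison did not overlap either, as for 39.6% of tested genes.

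**Figure D2:**
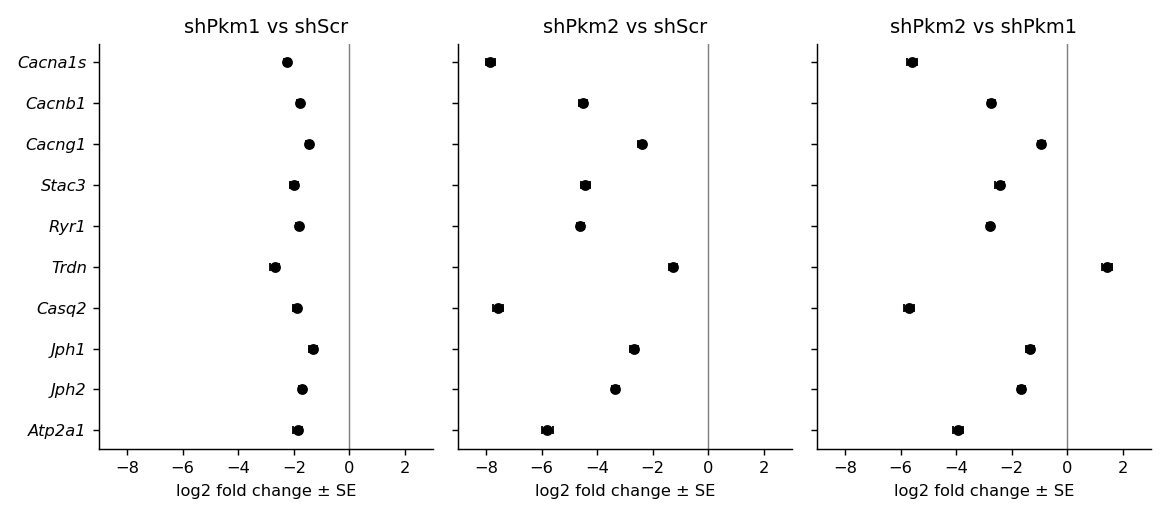
Log2 fold change ± SE (edgeR fit of all 6 libraries) of the 10 genes in the comparisons of shPkm1 with shScr, shPkm2 with shScr and shPkm2 with shPkm1. The left panel is narrow, from -2.69 to -1.31; in the middle panel Cacna1s (-7.85) and Casq2 (-7.59) lie furthest left; in the right panel only Trdn (1.43) lies right of 0.

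Cacna1s, Casq2 and Atp2a1 fell most in the shPkm2-labelled libraries, and the DNA before their start sites is shown here for that reason. The stretches are from the RefSeq promoter table (GRCm38.p6), run 5′ to 3′ on the strand of the gene, end before the first annotated base of any transcript of the gene, and carry E-box matches (CANNTG, which includes CAGCTG) in capitals. Cacna1s is chr1:136052561-136052783 on the plus strand, Casq2 is chr3:102086165-102086414 on the plus strand, and Atp2a1 is chr7:126463109-126463323 on the minus strand.
Cacna1s: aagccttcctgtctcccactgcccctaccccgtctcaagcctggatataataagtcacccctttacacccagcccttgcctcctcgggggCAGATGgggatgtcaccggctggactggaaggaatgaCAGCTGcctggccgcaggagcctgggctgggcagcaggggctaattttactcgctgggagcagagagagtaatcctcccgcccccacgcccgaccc
Casq2: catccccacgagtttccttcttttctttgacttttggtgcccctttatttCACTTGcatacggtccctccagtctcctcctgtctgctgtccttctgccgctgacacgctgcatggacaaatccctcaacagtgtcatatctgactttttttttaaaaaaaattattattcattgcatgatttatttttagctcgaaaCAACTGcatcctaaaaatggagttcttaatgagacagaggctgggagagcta
Atp2a1: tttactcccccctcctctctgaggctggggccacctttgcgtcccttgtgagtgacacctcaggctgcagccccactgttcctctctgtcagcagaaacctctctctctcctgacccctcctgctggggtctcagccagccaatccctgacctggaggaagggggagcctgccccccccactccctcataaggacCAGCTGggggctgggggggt
E-boxes are the sites bound by MyoD and myogenin with their partners, and CAGCTG is a form that these factors are known to bind. On both strands of the 250 bases before the start, Cacna1s held a CAGATG and a CAGCTG, beginning 160 and 123 bases before it. These distances run to the start in the RefSeq promoter table, which for Cacna1s and Atp2a1 lies beyond the end of the stretch shown. Casq2 held a CACTTG and a CAACTG, at 200 and 52 bases. Atp2a1 held a CAGCTG at 55 bases. Windows were matched for 6 of the 10 genes (Ryr1, Cacna1s, Cacnb1, Jph2, Casq2 and Atp2a1), 8 windows in all, since Cacnb1 and Jph2 have 2 starts each, those of Jph2 overlapping; Cacng1, Stac3, Jph1 and Trdn were not matched. A CAGCTG was found in 3 of the 6 genes (Cacna1s, Atp2a1 and Jph2), or in 4 of the 8 windows because those of Jph2 hold the same site, against 13.0% of the 32851 windows of the same length in the table. The Jph2 site and both Cacnb1 windows lie within the annotated span of their gene. Such bases are left out of the stretches shown but are included in these counts. Any CANNTG was found in 6 of 8, against 66.2%. A strict form of the MEF2 site (CTA, 4 of A or T, then TAG) was found in 0 of 8, against 0.508%. Looser forms of the MEF2 site were not searched, so the windows may hold some.

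The voltage sensor was examined first. Cacna1s (NCBI gene 12292, chromosome 1, 136052806 to 136119822) encodes the pore and voltage sensor of Cav1.1. It had 56.5 and 59.5 TPM in shScr, 15.7 and 16.0 in shPkm1, and 0.39 and 0.33 in the shPkm2-labelled libraries. The 3 groups did not overlap, and the last of them held only 21 and 23 counts against 4013 and 4062 in the controls. The log2 fold change was -2.25 (adjusted p 2.81e-09, SE 0.109) in shPkm1 and -7.85 (adjusted p 2.26e-12, SE 0.166) in the shPkm2-labelled libraries, or 231-fold lower. On log2(TPM + 1), a scale that understates changes of low genes, the second value was -5.44, and on log2(TPM + 0.1) it was -6.98. Falls of abundant genes were smaller on these scales too: that of Cacng1 in shPkm1 was -1.07 on both, against -1.46 in edgeR.

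Cacnb1 (gene 12295, chromosome 11, 98001508 to 98023034) encodes the cytoplasmic beta subunit that brings the channel to the membrane. Its level was 179 and 162 TPM in shScr, 65.7 and 70.7 in shPkm1, and 11.04 and 10.09 in the shPkm2-labelled libraries. Each group lay below the one before it, with log2 fold changes of -1.77 (adjusted p 4.05e-08, SE 0.114) and -4.51 (adjusted p 1.16e-11, SE 0.133). The gene overlaps Rpl19 by 1032 bases in the annotation, and strandedness is not given in the sources used here, so reads there cannot be told apart.

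Cacng1 (gene 12299, chromosome 11, 107703218 to 107716476), the gamma subunit of the same channel, had 632 and 630 TPM in shScr, 283 and 318 in shPkm1, and 163 and 166 in the shPkm2-labelled libraries. It thus kept a far higher level than the pore subunit in the last group. Its log2 fold change was -1.46 (adjusted p 2.72e-07, SE 0.116) in shPkm1 and -2.40 (adjusted p 1.48e-09, SE 0.120) in the shPkm2-labelled libraries. Between the Pkm hairpin groups it differed by -0.94 (adjusted p 1.68e-05, SE 0.116), which was the smallest of the 9 falls in that comparison.

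Stac3 (gene 237611, chromosome 10, 127501617 to 127508823) encodes an adaptor that the voltage sensor needs to couple to the release channel. Its level was 131 and 114 TPM in shScr, 38.8 and 42.4 in shPkm1, and 7.92 and 7.55 in the shPkm2-labelled libraries. The groups did not overlap, and the log2 fold changes were -1.998 (adjusted p 5.12e-08, SE 0.132) and -4.43 (adjusted p 5.18e-11, SE 0.156). Stac3 and Cacnb1 followed the mean profile of the 10 genes over the 6 libraries most closely, at Euclidean distances of 0.203 and 0.196 in log2 CPM.

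On the side of the store, Ryr1 (gene 20190, chromosome 7, 29003340 to 29125179) encodes the calcium release channel. It had 38.0 and 42.2 TPM in shScr, 14.5 and 15.2 in shPkm1, and 2.31 and 2.06 in the shPkm2-labelled libraries. These are log2 fold changes of -1.81 (adjusted p 1.40e-08, SE 0.103) and -4.61 (adjusted p 6.06e-12, SE 0.120), with no overlap between groups. The release channel had the smaller fold change of the pair in the shPkm2-labelled libraries. The ratio of Cacna1s to Ryr1 in TPM was 1.48 and 1.41 in shScr, 1.08 and 1.05 in shPkm1, and 0.169 and 0.160 in the shPkm2-labelled libraries. Such ratios within a library do not depend on the scaling between libraries and were not tested.

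Trdn (gene 76757, chromosome 10, 33083483 to 33476709) encodes triadin, which anchors calsequestrin to the release channel. It had 22.6 and 20.2 TPM in shScr, 4.98 and 3.78 in shPkm1, and 14.3 and 10.4 in the shPkm2-labelled libraries. It was the only one of the 10 with its lowest level in shPkm1, and the groups did not overlap. The log2 fold change was -2.69 (adjusted p 2.63e-08, SE 0.165) in shPkm1, the deepest of the 10, and -1.26 (adjusted p 6.51e-06, SE 0.149) in the shPkm2-labelled libraries, the shallowest of the 10. On log2(TPM + 1) the latter was -0.76 with a limma adjusted p of 0.00213. The direct comparison gave 1.43 (adjusted p 9.01e-06, SE 0.166), with both shPkm2-labelled libraries above both shPkm1 libraries. This combination, lower in both groups than in shScr and higher in the shPkm2-labelled libraries than in shPkm1, held for 236 of the tested genes (1.87%). The ratio of Trdn to Ryr1 was 0.594 and 0.479 in shScr, 0.343 and 0.249 in shPkm1, and 6.20 and 5.03 in the shPkm2-labelled libraries. The annotated gene overlaps the long noncoding RNA D830005E20Rik, and the table holds 1 Trdn transcript, the long NM_029726.2 of 38 exons.

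Casq2 (gene 12373, chromosome 3, 102086415 to 102146514) encodes the calsequestrin of heart and of developing and slow muscle, which binds calcium inside the store. It stood at 371 and 312 TPM in shScr, 125 and 117 in shPkm1, and 2.55 and 2.35 in the shPkm2-labelled libraries. The log2 fold changes were -1.90 (adjusted p 6.86e-08, SE 0.130) and -7.59 (adjusted p 3.79e-12, SE 0.183). Casq2 thus went from the third highest of the 10 in shScr and shPkm1 to rank 8 of 10 in the shPkm2-labelled libraries. In shScr it was 56.4 and 52.9 times the level of its fast-muscle paralogue Casq1.

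The junctophilins were next. Jph1 (gene 57339, chromosome 1, 16942104 to 17097922), the skeletal form, had 21.2 and 18.2 TPM in shScr, 10.9 and 10.6 in shPkm1, and 5.12 and 3.71 in the shPkm2-labelled libraries. Its log2 fold changes were -1.31 (adjusted p 2.14e-06, SE 0.132) and -2.67 (adjusted p 2.89e-09, SE 0.143); on log2(TPM + 1) the first was -0.82. Jph2 (gene 59091, chromosome 2, 163336242 to 163398049), found in heart and skeletal muscle, was far more abundant, at 199 and 189 TPM in shScr, 75.6 and 80.1 in shPkm1, and 27.9 and 24.4 in the shPkm2-labelled libraries. Its log2 fold changes were -1.71 (adjusted p 6.85e-08, SE 0.117) and -3.36 (adjusted p 9.23e-11, SE 0.125). Jph2 exceeded Jph1 by 9.38 and 10.4 times in shScr, 6.93 and 7.59 times in shPkm1, and 5.44 and 6.57 times in the shPkm2-labelled libraries.

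Atp2a1 (gene 11937, chromosome 7, 126445858 to 126463103) encodes SERCA1, the calcium pump of fast muscle. It overlaps Rabep2 by 50 bases in the annotation. It had 757 and 559 TPM in shScr, 239 and 241 in shPkm1, and 16.4 and 16.2 in the shPkm2-labelled libraries. The control libraries differed from each other more than for the other 9 genes, yet both lay far above the rest. The log2 fold changes were -1.86 (adjusted p 7.17e-07, SE 0.165) and -5.81 (adjusted p 4.52e-11, SE 0.200). Atp2a2, which encodes the SERCA2 pump of heart, slow muscle and non-muscle cells, had 152 and 165 TPM in shScr, 116 and 110 in shPkm1, and 91.1 and 85.6 in the shPkm2-labelled libraries. Its falls, -0.87 (adjusted p 5.90e-06, SE 0.0976) and -1.27 (adjusted p 1.05e-07, SE 0.0985), were smaller in size. The ratio of Atp2a1 to Atp2a2 went from 4.98 and 3.40 in shScr to 2.07 and 2.18 in shPkm1 and 0.180 and 0.189 in the shPkm2-labelled libraries, where the SERCA2 transcript was the more abundant.

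**Figure D3:**
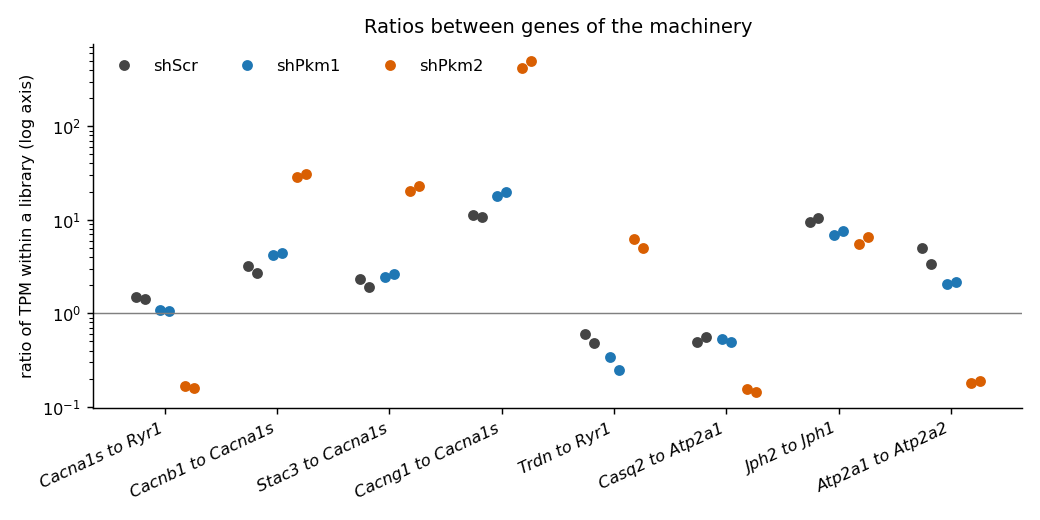
Ratios of TPM between genes of the machinery within each library (log axis); points are libraries and the grey line marks equal levels. Between shScr and shPkm2 the ratio of Cacna1s to Ryr1 drops across the line, from 1.48 and 1.41 to 0.169 and 0.160. Those of Trdn to Ryr1 and Atp2a1 to Atp2a2 also cross the line, and that of Jph2 to Jph1 moves least of the ratios drawn.

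The proportions of the channel subunits shifted along with the levels. Cacnb1 was 3.17 and 2.72 times the level of Cacna1s in shScr, 4.18 and 4.42 times in shPkm1, and 28.3 and 30.6 times in the shPkm2-labelled libraries. Stac3 was 2.33 and 1.91 times Cacna1s in shScr, 2.47 and 2.65 times in shPkm1, and 20.3 and 22.9 times in the shPkm2-labelled libraries. Casq2 was 0.490 and 0.559 of Atp2a1 in shScr and 0.525 and 0.487 in shPkm1, which overlap, and 0.155 and 0.145 in the shPkm2-labelled libraries. The spread between the most and the least abundant of the 10 genes was 35.7- and 34.6-fold in shScr, 56.8- and 84.0-fold in shPkm1, and 417- and 504-fold in the shPkm2-labelled libraries.

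The gene values are sums over transcripts, so the transcript values describe how each fall was divided and are no separate support for it. Of 40 listed transcripts of the 10 genes 30 could be tested, in a fit of 33433 transcripts. In shPkm1 12 of the 30 were lower and 0 higher (5.36% of all transcripts were called lower), and in the shPkm2-labelled libraries 20 were lower and 0 higher (9.32%). In the direct comparison 15 were lower in the shPkm2-labelled libraries (5.04% of all transcripts) and 1, the Trdn transcript, was higher; with the replicate number as a block, 10 were called in place of these 16. Transcripts of a gene share most reads, so their split depends on the authors' estimation.

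Cacnb1 transcripts differ in an internal exon. NM_031173.4 and NM_001282977.1 hold an exon of 155 bases (chr11:98011343-98011497), and NM_145121.3, NM_001159319.2 and NM_001282978.1 hold an exon of 20 bases in its place (chr11:98010627-98010646), by their GENCODE M21 structures on GRCm38. Transcripts with the 155-base exon took 89.5% and 89.3% of the Cacnb1 counts in shScr, 85.2% and 85.5% in shPkm1, and 52.7% and 57.6% in the shPkm2-labelled libraries. Those with the 20-base exon took 6.57% and 6.69%, 1.12% and 6.96%, and 28.9% and 16.2% in the same order, and 4 predicted transcripts without a structure there took the rest. The share of the 155-base form did not overlap between groups, while that of the 20-base form varied widely within the Pkm hairpin groups. Of the 155-base transcripts, NM_001282977.1, of 14 exons, went from 1320 and 1509 counts in shScr to 0.12 and 2.66 in the shPkm2-labelled libraries. NM_031173.4, of 13 exons, went from 2960 and 2448 counts to 135 and 145, a log2 fold change of -4.58 (adjusted p 0.000935, SE 0.188).

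Atp2a1 counts were divided between 2 transcripts. NM_007504.2, of 23 exons, took 30.2% and 47.1% in shScr, 52.8% and 51.6% in shPkm1, and 67.0% and 74.9% in the shPkm2-labelled libraries. The control libraries differed widely from each other, but the 3 groups did not overlap. NM_007504.2 fell by 4.83 on the log2 scale (adjusted p 0.000549, SE 0.113) and the predicted XM_006507268.1 fell by 6.89 (adjusted p 0.00199, SE 0.444) in the shPkm2-labelled libraries; the difference between the falls was not tested. For Jph2 the share of NM_021566.2 was 93.4% and 60.8% in the control libraries, so that no group could be set apart.

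**Figure D4:**
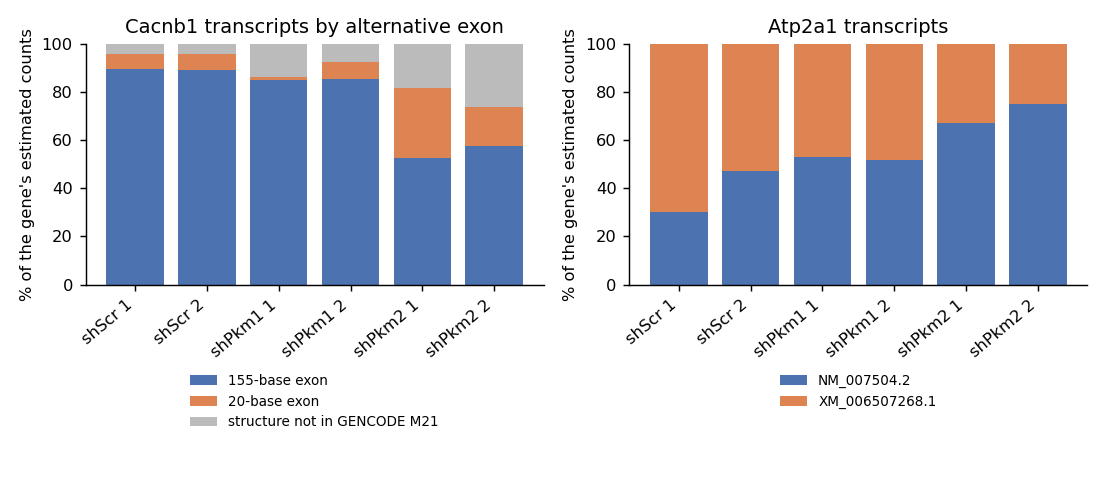
Share of estimated counts by transcript in each library, for Cacnb1 transcripts grouped by their alternative exon (left) and for the Atp2a1 transcripts (right). The share with the 155-base exon drops from 89.5% and 89.3% in shScr to 52.7% and 57.6% in shPkm2, and that of NM_007504.2 rises from 30.2% and 47.1% to 67.0% and 74.9%.

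A wider list of 86 genes of muscle calcium handling and excitation was described beside the 10, of which 80 were in the table and 69 could be tested. In shPkm1 32 were lower, 17 higher and 20 did not pass, with a median of -0.19, where 31.4% of all tested genes were called lower and 31.8% higher. In the shPkm2-labelled libraries 37 were lower, 14 higher and 18 did not pass, with a median of -0.50, beside 34.2% and 33.9% of all tested genes. These shares over all tested genes are the background for each group of the list below. Scaling moves this split: with library totals 27 were lower and 24 higher in shPkm1, and 31 lower and 21 higher in the shPkm2-labelled libraries. On log2(TPM + 1) it was 19 lower and 29 higher, and 29 lower and 24 higher.

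Of 11 tested paralogues of the 10 genes, 4 were lower and 4 higher in shPkm1, near the background of 31.4% and 31.8%. In the shPkm2-labelled libraries 6 were lower and 3 higher, beside 34.2% and 33.9% of all tested genes. The heart forms of the release channel and the pore, Ryr2 and Cacna1c, were at 0.01 and 0.02 TPM or less in every library, and Cacna1d, Cacna1e and Cacnb4 also did not exceed 0.02. Ryr3, a release channel of developing muscle, had 2.98 and 3.40 TPM in shScr, 3.16 and 3.00 in shPkm1, and 3.34 and 2.88 in the shPkm2-labelled libraries. Its edgeR values of -0.44 (adjusted p 0.00249) and -0.50 (adjusted p 0.000760) passed, and both calls were lost with library totals (adjusted p 0.0780 and 0.176) and on both TPM scales. Ryr1 was 12.8 and 12.4 times as abundant as Ryr3 in shScr but 0.692 and 0.715 times in the shPkm2-labelled libraries. Cacnb3, a beta subunit of other tissues, had 84.1 and 80.3 TPM in shScr and 101 and 89.6 in the shPkm2-labelled libraries, where its edgeR call (-0.28, adjusted p 0.0321) turned to 0.0497 with library totals and was lost without any library other than control library 2 (adjusted p 0.0571 to 0.200). Stac2 had 32.3 and 40.6 TPM in shScr, 60.0 and 56.5 in shPkm1, and 88.5 and 85.8 in the shPkm2-labelled libraries, and rose by 0.81 in the latter (adjusted p 6.92e-06, SE 0.0970). Casq1, the fast-muscle calsequestrin, had 6.58 and 5.91 TPM in shScr, 5.81 and 6.01 in shPkm1, and 0.10 and 0.05 in the shPkm2-labelled libraries, the last from 2 and 1 counts. In shPkm1 its change of -0.47 (adjusted p 0.0475) was lost without control library 1, either shPkm1 library or either shPkm2 library (adjusted p 0.0650 to 0.234), and held without control library 2 (0.00782). It was also lost with library totals, DESeq2, both TPM scales, the compared groups alone and the replicate block (adjusted p 0.0528 to 0.790), and held in 4 of 15 alternatives.

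Cacna1g, a low-voltage-activated calcium channel, went from 0.26 and 0.17 TPM in shScr to 2.11 and 2.09 in shPkm1 (2.89, adjusted p 8.80e-07, SE 0.263). In the shPkm2-labelled libraries it was at 0.41 and 0.27 TPM and did not pass (0.23, adjusted p 0.535). Atp2a3, the SERCA3 pump, was among 5 genes of the wider list with opposite calls, higher by 1.06 in shPkm1 (adjusted p 0.00108) and lower by a log2 fold change of -2.47 in the shPkm2-labelled libraries (adjusted p 9.34e-06). The others included Cacng6, a gamma subunit with at most 32 counts in a library, Kcnj12, an inward rectifier potassium channel with at most 51, and Speg, a kinase of the triad. Speg had values of 0.27 and -0.41, of which the second turned to 0.19 on log2(TPM + 1), was lost with library totals and was lost without shPkm2 library 2 (adjusted p 0.0666). The first was lost with DESeq2 (0.0551) and without control library 2 or either shPkm1 library (0.108 to 0.124), so neither call was stable. The call of Kcnj12 in shPkm1 was lost with DESeq2 (0.0784) and without shPkm1 library 1 (0.0522). Cacng6 was at 0 counts in both shPkm2-labelled libraries, and Jph4, with 5 and 5 counts in shScr, was at 0 in both shPkm1 libraries. Cacnb2 and Cacng7 rose in the shPkm2-labelled libraries (1.16 and 1.22, adjusted p 0.00168 and 0.00223), from at most 0.99 TPM in shScr.

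Partners at the triad included some of the deepest falls. Of 15 tested, 8 were lower and 3 higher in shPkm1 (31.4% and 31.8% of all tested genes), and 9 lower and 4 higher in the shPkm2-labelled libraries (34.2% and 33.9%). Hrc, a calcium-binding protein of the store, had 160 and 135 TPM in shScr, 46.0 and 50.6 in shPkm1, and 1.57 and 1.40 in the shPkm2-labelled libraries, with log2 fold changes of -2.01 and -7.10 (adjusted p 5.63e-08 and 7.63e-12). Srl (sarcalumenin) changed by -1.39 and -5.70, Tmem38a (the potassium channel TRIC-A of the store membrane) by -2.11 and -5.16, and Jsrp1, which binds the voltage sensor, by -2.12 and -4.34. All 6 values passed, at 4.38e-07 or a smaller adjusted p. The calmodulin gene Calm2 rose instead, by 0.99 (adjusted p 5.72e-06, SE 0.111) and 1.18 (adjusted p 7.36e-07, SE 0.111).

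Of 10 genes for T-tubule formation, 5 were lower in shPkm1 (31.4% of all tested genes) and 6 in the shPkm2-labelled libraries (34.2%), with 0 higher in each (31.8% and 33.9%). Bin1, which bends the tubule membrane, had 999 and 937 TPM in shScr, 558 and 567 in shPkm1, and 278 and 261 in the shPkm2-labelled libraries. Its log2 fold changes were -1.18 (adjusted p 2.87e-06, SE 0.122) and -2.32 (adjusted p 3.50e-09, SE 0.127). Cav3, the muscle caveolin, had 68.9 and 34.3 TPM in shScr, 14.8 and 14.9 in shPkm1, and 0.08 and 0.48 in the shPkm2-labelled libraries, the last from 1 and 6 counts. Dysf (dysferlin, a membrane repair protein) had a value of 0.26 in shPkm1 that did not pass (adjusted p 0.156) and fell in the shPkm2-labelled libraries by a log2 fold change of -4.10 (adjusted p 1.39e-09, SE 0.204). The value in shPkm1 was 0.59 and passed without control library 1 (adjusted p 2.23e-05), and also passed with library totals, at 0.46, on log2(TPM + 1), at 0.61, and on log2(TPM + 0.1), at 0.66.

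Among 13 tested genes of membrane excitation, 8 were lower and 2 higher in shPkm1 (31.4% and 31.8% of all tested genes), and 10 lower and 0 higher in the shPkm2-labelled libraries (34.2% and 33.9%). Scn4a, the sodium channel of the muscle action potential, changed by -2.86 (adjusted p 1.55e-07, SE 0.214) and -6.94 (adjusted p 8.06e-10, SE 0.326). The acetylcholine receptor subunit Chrnb1 changed by -1.24 and -1.72.

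Of 9 tested genes of store-operated entry and IP3 receptors, 3 were lower and 3 higher in shPkm1 (31.4% and 31.8% of all tested genes), and 3 lower and 4 higher in the shPkm2-labelled libraries (34.2% and 33.9%). Stim1, the calcium sensor of the store, had 55.7 and 54.0 TPM in shScr, 18.8 and 17.3 in shPkm1, and 13.1 and 13.5 in the shPkm2-labelled libraries, and Orai1, the channel it opens, had 86.8 and 85.3, 58.0 and 62.5, and 19.6 and 19.0. The log2 fold changes were -2.01 and -2.51 for Stim1 and -0.93 and -2.57 for Orai1, with an adjusted p of 5.58e-06 or less. Itpr2, an IP3 receptor, rose by 1.20 (adjusted p 2.16e-06) and 0.95 (adjusted p 1.21e-05). Of 7 genes of calcium extrusion and mitochondrial uptake, 2 were lower in each group, near the background of 31.4% and 34.2%, among them the uniporter pore Mcu (-1.32 and -1.79). In all 3 were higher in shPkm1, among them the plasma membrane pump Atp2b4 (1.22) and Micu3 (1.29), and 2 in the shPkm2-labelled libraries, Micu3 (0.85) and Atp2b1 (0.80). The call of Micu3 in the latter was lost with DESeq2 (adjusted p 0.0578) and without control library 2 or shPkm2 library 2 (0.0885 and 0.0714). Of 4 pump regulators and buffers, Mrln (myoregulin, a peptide inhibitor of SERCA) changed by -2.59 (adjusted p 5.81e-06) and -1.93 (adjusted p 2.68e-05), and Sri (sorcin) rose by 0.77 and 1.08. Calr (calreticulin) rose by 0.75 in shPkm1 (adjusted p 0.000145) and had a value of -0.15 in the shPkm2-labelled libraries (adjusted p 0.272), which turned to 0.30 and passed on log2(TPM + 1) (adjusted p 0.0392). Pvalb (parvalbumin) had 8.85 and 34.5 TPM in the control libraries, and its change in shPkm1 of -1.43 (adjusted p 0.00816) went to -0.26 (adjusted p 0.339) without control library 2 and was also lost without either shPkm1 library (adjusted p 0.0602 and 0.0768), with DESeq2 (0.0902) and on both TPM scales (0.146 and 0.146).

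**Figure D5:**
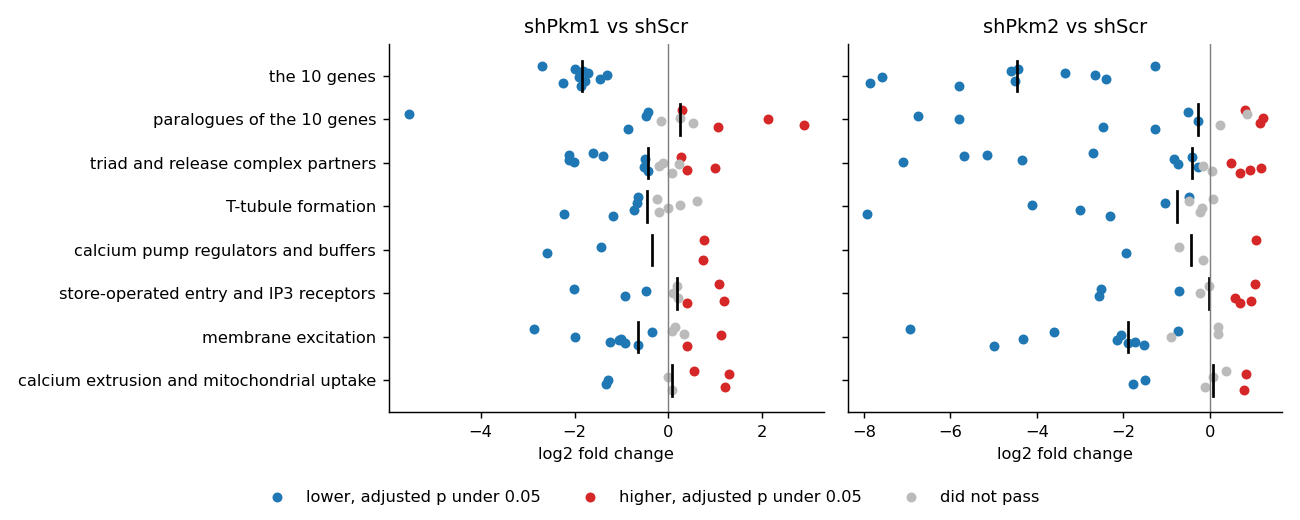
Log2 fold change against shScr of the 10 genes and of each group of the wider list, in shPkm1 (left) and shPkm2 (right); points are tested genes, coloured by whether the adjusted p was under 0.05, and black bars are medians. The 10 genes lie wholly left of 0 with medians of -1.84 and -4.47, while every other group has points on both sides of 0 in at least 1 panel; Jph4 on the left and Cacng6 on the right had 0 counts in a group, so their place is not a bound.

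The genes outside these lists with the profile most like the mean of the 10 over the 6 libraries were sought among 10860 tested genes that averaged 50 counts or more. Ckb, a creatine kinase, was the nearest, at a Euclidean distance of 0.337 in log2 CPM centred on shScr, and the nearest 5 also included Tead4 (0.368), Txlnb (0.407) and Ccdc88c (0.541). Distances of the 10 genes themselves from their mean ran from 0.196 (Cacnb1) to 4.71 (Cacna1s), with Trdn at 4.62 and Casq2 at 4.41. Ckb changed by -2.07 in shPkm1 and -4.39 in the shPkm2-labelled libraries.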

How the data were processed

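RNA of 6 C2C12 libraries was isolated by TRIzol-chloroform separation and a sequencing company prepared the libraries, per the labels' protocols. The deposited table has 57920 transcripts; per the file headers the authors give an estimated count, an FPKM and a TPM value for each transcript and library. The submitters' processing notes name mm10, HISAT, StringTie, Bowtie, RSEM and DESeq2, without versions. FPKM, deposited by the authors, and 9 columns of group means were not used here. Estimated counts and TPM were summed per NCBI gene number; 17445 of 17558 numbers matched a symbol (RefSeq, GRCm38.p6). Counts were rounded to whole numbers.

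The gene-level test was edgeR 4.0.16 in R 4.3.3: filterByExpr (minimum count 10, total 15), TMM, 1 coefficient per group over all 6 libraries, quasi-likelihood F-test, two-sided, Benjamini-Hochberg over 12643 genes, threshold 0.05. The SE is the absolute log2 fold change over the root of F. Transcripts were fitted in the same way. A permutation over 2 against 2 libraries was not used. Alternatives were DESeq2 size factors, library totals, no filter, a mean count minimum of 50, DESeq2 1.42.0, limma 3.58.1 on log2(TPM + 1) and log2(TPM + 0.1), the compared groups alone, a block for the replicate number, and omission of each library in turn. Tests were checked on simulated counts.

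The 10 genes and the lists were chosen with earlier results of these data known. Of the wider list, the paralogues were always named, each other group added its 2 largest rises and falls among called genes averaging 50 counts or more, and genes with opposite calls were added; Cacna1d, Cacna1e, Cacnb4 and Ryr2 were too low to test. Sln, Pln, Strit1, Cacna1h and Jph3 were not analysed here, and some genes that the rule names are not reported here. Figures were drawn with matplotlib 3.10.9.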

Additional observations from a re-analysis of the deposited data

How the results depend on the processing

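The call and direction of the 10 genes was the same in the 3 comparisons under each of 15 alternatives, 450 values in all. Their median log2 fold change in shPkm1 was -1.64 with library totals, -1.40 on log2(TPM + 1) and -1.43 on log2(TPM + 0.1), and ran from -1.997 to -1.65 on leaving out a library. In the shPkm2-labelled libraries it was -4.14, -3.75 and -3.98 in the same order, and from -4.61 to -4.29. In the direct comparison it was -2.45 with library totals and -2.28 on log2(TPM + 1). Library totals shifted the median of all genes by 0.19, 0.32 and 0.13. Of the wider list, 19 and 21 genes were lower and 29 and 29 higher in shPkm1 on log2(TPM + 1) and log2(TPM + 0.1), against 32 and 17, and 24 and 24 were higher in the shPkm2-labelled libraries, against 14. In the direct comparison 34 of 69 were lower and 14 higher (27.3% and 25.7% of all tested genes), and 7 to 15 were higher on leaving out a library (7 without shPkm1 library 1 or shPkm2 library 1, 8 and 9 without the second of each). In shPkm2 against shScr, Cacnb3 turned to 0.0497 with library totals and 0.21 on both TPM scales, and Speg (-0.41) to 0.19 on both TPM scales; the cause was not tested. Deviations of same-numbered libraries had correlations of -0.0574 to 0.0897. With 2 libraries per group these values cannot settle whether the numbers pair the libraries. With the replicate block 10 of 10 genes kept their calls against shScr, and 10 transcripts were called in the direct comparison against 16. At 21 and 23 counts for Cacna1s, and 2 and 1 for Casq1, depth limits the values of the shPkm2-labelled libraries.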
